A study of Homo sapiens with 9 samples.

Results

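Genes named as the antisense partner of another gene were followed in LC-2/ad lung adenocarcinoma cells and in PR1 and PR2, derivatives of that line that resist ponatinib. They are the rows of the deposited expression table that carry a single symbol ending in -AS and a number and that reached 1 FPKM or more (fragments scaled to transcript length and library size) in at least 3 of the 9 libraries. They were thus chosen by their measured FPKM level, and the comparisons between groups did not enter the rule. The rule kept 167 of 689 such rows, out of 24069 rows in the table, and 12011 rows of all kinds passed the same threshold. Of the other antisense rows, 363 had values above 0 that stayed under the threshold and 159 were at 0 in every library. Just inside the threshold lay INTS6-AS1, PTPRG-AS1 and SSSCA1-AS1, with a third-highest value of 1.01, 1.01 and 1.03 FPKM. Just outside it lay MYLK-AS1, KIF9-AS1 and DNAJC27-AS1, with 0.988, 0.981 and 0.958 FPKM.

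LC-2/ad is an established human line that carries a CCDC6-RET fusion, and ponatinib inhibits several kinases, RET among them. The groups were PR2 cultured in 200 nM ponatinib, PR1 cultured in 200 nM ponatinib and parental LC-2/ad cells, with 3 libraries each, lettered A, B and C. The labels name no drug for parental cells, so effects of resistance and of ongoing ponatinib exposure cannot be told apart against them. Neither separate cultures behind the letters nor the clonality of a derivative is stated, so p-values reflect the spread among libraries alone, and that spread may be technical.

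An antisense RNA is transcribed from the strand opposite to another gene, its sense partner. Some overlap the partner's exons, and others start beside the partner's start and run the other way from a shared, bidirectional promoter. Several antisense RNAs are known to act on the partner in cis, for others the act of transcription matters more than the transcript, and for most no function is established. In GENCODE 29, 106 of the 167 antisense genes shared exonic positions with the partner, 17 overlapped only its body, 33 started head to head with it within 1 kb, 2 did so from farther away, and 9 could not be placed. Whether reads were counted by strand is not given in the sources used here, so for pairs with overlapping exons the reads of the antisense gene and of its partner cannot be told apart.

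The starts of 6 head-to-head genes carry the results below, because each of these antisense genes differed between groups while its partner starts within the same stretch of DNA. The sequences are RefSeq windows of build GRCh38.p14, 250 bases before to 50 bases after the start of the antisense transcript, read on its own strand. Capitals mark matches to the GC box (GGGCGG), to the CCAAT box (its letters are its name) and to the TATA box (TATAAA), each searched on both strands with overlaps allowed. The windows lie at chr13:94712466-94712765 on the plus strand (SOX21-AS1), chr7:157010607-157010906 on the plus strand (MNX1-AS1), chr7:140177011-140177310 on the plus strand (JHDM1D-AS1, now KDM7A-DT), chr5:181260962-181261261 on the plus strand (TRIM52-AS1), chr3:196942424-196942723 on the plus strand (NCBP2-AS2) and chr17:14069409-14069708 on the minus strand (COX10-AS1, now COX10-DT).
SOX21-AS1: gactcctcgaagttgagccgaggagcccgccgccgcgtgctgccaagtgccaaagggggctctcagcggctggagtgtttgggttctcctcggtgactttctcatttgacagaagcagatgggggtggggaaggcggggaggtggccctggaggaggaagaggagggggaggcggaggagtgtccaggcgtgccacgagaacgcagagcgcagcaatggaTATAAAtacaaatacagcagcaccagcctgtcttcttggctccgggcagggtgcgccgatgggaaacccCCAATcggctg
MNX1-AS1: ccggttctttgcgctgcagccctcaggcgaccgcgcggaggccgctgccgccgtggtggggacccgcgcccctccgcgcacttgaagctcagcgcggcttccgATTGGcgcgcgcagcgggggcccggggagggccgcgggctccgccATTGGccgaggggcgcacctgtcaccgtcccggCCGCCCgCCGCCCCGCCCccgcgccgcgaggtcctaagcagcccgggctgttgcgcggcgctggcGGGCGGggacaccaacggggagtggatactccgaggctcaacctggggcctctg
JHDM1D-AS1: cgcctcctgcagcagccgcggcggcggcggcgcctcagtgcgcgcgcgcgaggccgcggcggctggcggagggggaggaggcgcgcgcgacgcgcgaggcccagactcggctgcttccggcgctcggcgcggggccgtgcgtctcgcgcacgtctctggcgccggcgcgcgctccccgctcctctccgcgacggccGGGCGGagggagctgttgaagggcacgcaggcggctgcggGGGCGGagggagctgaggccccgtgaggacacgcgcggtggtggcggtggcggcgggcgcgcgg
TRIM52-AS1: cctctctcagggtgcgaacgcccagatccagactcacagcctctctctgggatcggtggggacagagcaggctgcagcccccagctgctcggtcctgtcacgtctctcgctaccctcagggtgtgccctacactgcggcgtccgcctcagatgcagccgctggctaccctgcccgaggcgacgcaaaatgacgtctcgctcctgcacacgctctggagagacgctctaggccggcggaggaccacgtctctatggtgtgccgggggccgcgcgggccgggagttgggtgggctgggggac
NCBP2-AS2: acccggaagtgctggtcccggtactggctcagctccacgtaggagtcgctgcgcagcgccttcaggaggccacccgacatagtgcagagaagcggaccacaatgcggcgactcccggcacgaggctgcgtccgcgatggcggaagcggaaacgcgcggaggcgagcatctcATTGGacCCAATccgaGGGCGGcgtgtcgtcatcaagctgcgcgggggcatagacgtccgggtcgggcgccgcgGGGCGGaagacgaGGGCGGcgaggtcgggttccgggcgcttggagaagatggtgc
COX10-AS1: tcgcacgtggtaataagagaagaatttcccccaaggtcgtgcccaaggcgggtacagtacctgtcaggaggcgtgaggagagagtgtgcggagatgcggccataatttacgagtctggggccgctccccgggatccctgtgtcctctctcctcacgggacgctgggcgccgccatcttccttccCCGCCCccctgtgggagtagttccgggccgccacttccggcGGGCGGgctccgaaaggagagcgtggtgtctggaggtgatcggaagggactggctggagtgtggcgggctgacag

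These windows overlap the partner's own window on the opposite strand by 270 bases for SOX21, 293 for one of the windows of MNX1, 223 for KDM7A (the current name of JHDM1D), 168 for TRIM52, 245 for NCBP2 and 145 for COX10. The SOX21-AS1 window was the only one of the 6 with a TATA box, and it held 18 CpG dinucleotides, against 59 in the JHDM1D-AS1 window and 44 in that of MNX1-AS1. Over the 103 antisense genes with a single window, the median was 26 CpG, against 14 over the 35116 windows of all genes. A GC box stood in 57.3% of the 103 and in 45.0% of all windows, a CCAAT box in 37.9% and 34.6%, and a TATA box in 7.77% and 11.5%. The windows of all genes were limited neither by FPKM nor to genes with a single window, so the sets differ in more than antisense naming. A match is a run of letters and not a measured binding site.

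The libraries held between 131 and 148 of the antisense genes at 1 FPKM or more, and these genes summed to between 849 and 1045 FPKM per library. Depths relative to the deepest library were 0.76 to 1. Log2(FPKM + 1) correlated across all tested rows at 0.961 to 0.985 within groups and at 0.883 to 0.949 between them. The third principal component, 12.6% of the variance, set A libraries against B libraries in each group, and the A library was the highest within each of the 3 groups at 17 antisense genes (10.2%, against 13.9% of all rows) and the lowest at 13 (7.78%, against 8.23%). The 6 epithelial markers were all present, with sums of 6800 to 8790 FPKM in PR2, 4770 to 7120 in PR1 and 5410 to 6460 in parental cells. Marker sums of blood cells were 0.762 to 1.09 FPKM in PR2, 1.17 to 1.74 in PR1 and 3.54 to 9.16 in parental cells, those of fibroblasts 9.48 to 10.8, 5.98 to 8.43 and 3.64 to 8.04, and those of endothelium 0.628 to 3.55, 2.22 to 7.88 and 2.62 to 3.74. For each of these 3 lists only 1 gene reached the threshold for testing, none was at 0 in every library, and their part in the results below was not tested. In bulk RNA, fewer cells with a transcript and less of it per cell cannot be told apart.

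Antisense genes were mostly low. Their median mean over the 9 libraries was 2.63 FPKM, against 11.9 FPKM for the sense genes with a row of their own and 10.9 FPKM for all rows tested. Single means ran from 0.711 to 122 FPKM, with 62 genes under 2 FPKM and 20 at 10 FPKM or more. Of 149 pairs in which the sense gene had its own row, the antisense gene had the higher mean in 44, and the median antisense level was 0.286 of the sense level. Another 14 partners lay in loci whose values the authors combined with other genes, and 4 (HOXB, JHDM1D, KRTAP5 and RPARP) had no row under that name.

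**Figure D1:**
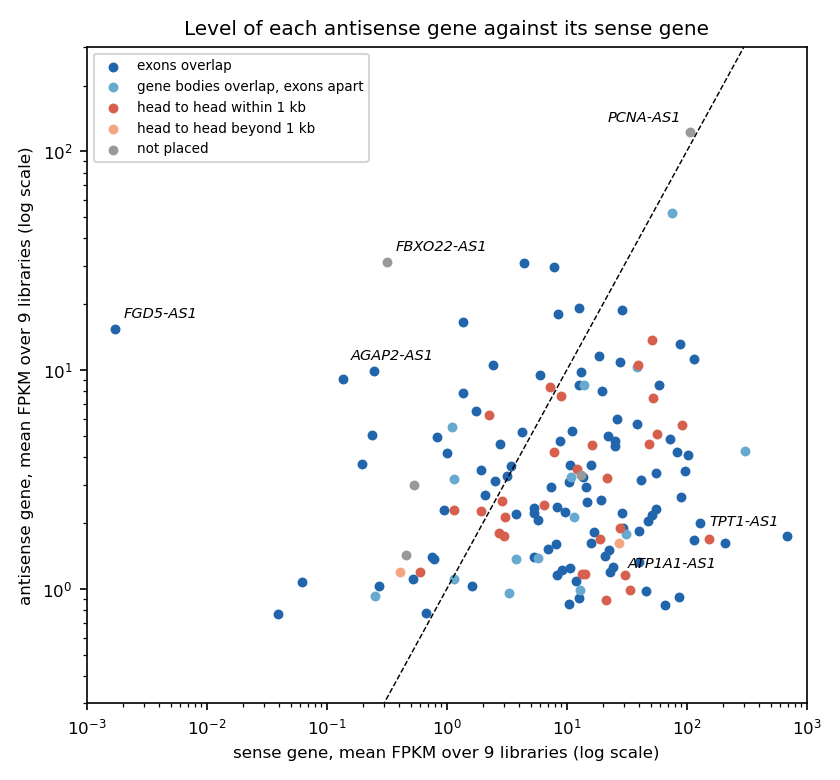
Mean FPKM over 9 libraries of each antisense gene (vertical axis, log scale) against its sense gene (horizontal axis, log scale) for the 149 pairs, coloured by the arrangement of the pair in GENCODE 29; the dashed line marks equal levels. Most points lie below the line, and 44 lie above it, FGD5-AS1 and FBXO22-AS1 the farthest. The symbol FBXO22-AS1 was matched in neither GENCODE nor RefSeq.

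PCNA-AS1, antisense to the sliding clamp of DNA replication, was the highest, with 141, 97.7 and 125 FPKM in PR2, 178, 96.3 and 117 in PR1 and 143, 110 and 94.2 in parental cells. The groups overlapped, the A library was the highest in each, and the sense gene PCNA was of like level, with group means of 93.5, 127 and 98.6 FPKM in PR2, PR1 and parental cells. The bodies of PCNA-AS1 and PCNA overlap in RefSeq. As no strand setting is given, how far the values of PCNA-AS1 hold reads of PCNA is not known. HIF1A-AS2, from the locus of the hypoxia factor HIF-1 alpha, followed with 49.6 ± 2.2 FPKM in PR2, 41.9 ± 4.5 in PR1 and 65.8 ± 17.9 in parental cells (SD, n = 3 each). HIF1A had the same order of groups, with 75.2 ± 16.2 FPKM in PR2, 56.6 ± 17.6 in PR1 and 93.85 ± 44.58 in parental cells. Parental C was the highest library of both genes, at 86.25 FPKM for HIF1A-AS2 and 142.9 for HIF1A. Their bodies overlap in GENCODE, with exons apart. Without a strand setting, how far the values of HIF1A-AS2 hold reads of HIF1A is likewise not known. AFAP1-AS1, which is abundant in many carcinomas, had 24.6 ± 6.9 FPKM in PR2, 31.6 ± 8.5 in PR1 and 32.3 ± 5.0 in parental cells, and passed in no comparison. AFAP1, an actin filament-associated adaptor gene, averaged 11.5 ± 1.2 FPKM in PR2, 7.24 ± 1.84 in PR1 and 4.67 ± 0.53 in parental cells. It rose in PR2 against parental cells (log2 fold change 1.14 ± 0.19, limma adjusted p = 0.0019). Its difference of PR2 from PR1 (0.62) was lost without PR2 B, PR2 C or any PR1 library (limma adjusted p up to 0.14). EPB41L4A-AS1 had 21.0, 42.6 and 32.4 FPKM in PR2, 18.2, 24.0 and 15.4 in PR1 and 15.9, 40.0 and 68.2 in parental cells, with all groups overlapping. CERS6-AS1, at a ceramide synthase gene, had 12.7, 12.3 and 12.9 FPKM in PR2, 16.0, 18.1 and 21.9 in PR1 and 25.8, 20.0 and 23.0 in parental cells. Every PR2 library was below every other. Its fall against parental cells was called (log2 fold change -0.80 ± 0.16, limma adjusted p = 0.0048), and its difference from PR1 (-0.52) was lost without PR1 B, PR1 C or any PR2 library (limma adjusted p up to 0.14). CERS6 passed in no comparison, with 6.28 ± 1.01 FPKM in PR2, 9.24 ± 2.95 in PR1 and 10.06 ± 2.54 in parental cells. UGDH-AS1, at the gene of UDP-glucose dehydrogenase, had 16.7 to 24.2 FPKM in PR2, 11.0 to 18.1 in PR1 and 19.2 to 23.9 in parental cells and passed in no comparison. WAC-AS1 hardly varied, with 16.7 to 21.1 FPKM over the 9 libraries. FBXO22-AS1 stood at 23.0 to 41.7 FPKM although FBXO22, a substrate adaptor of a ubiquitin ligase, was at 0.155 to 0.624. The symbol FBXO22-AS1 was matched in neither GENCODE nor RefSeq, and the pair could not be placed. Which transcript its reads come from is therefore not known, and its level is not read as that of an antisense RNA. FGD5-AS1 stood at 13.0 to 20.1 FPKM although FGD5, an exchange factor known from endothelium, was listed at 0 in 7 libraries and at 0.00519 and 0.0104 FPKM in parental B and C. At the other end, TPT1-AS1 averaged 2.57 FPKM in PR2, 1.04 in PR1 and 1.63 in parental cells beside TPT1, a very abundant translation-linked protein gene, at 657, 610 and 810 FPKM.

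In PR2 against parental cells, 34 antisense genes passed the threshold (limma, adjusted p under 0.05 over all 12011 rows), 13 higher and 21 lower. That is 20.4% of the 167, against 23.4% of all rows tested (13.6% higher and 9.83% lower). In PR1 against parental cells, 21 passed, 8 higher and 13 lower, which is 12.6% against 15.5% (7.56% higher and 7.98% lower). Between PR2 and PR1, 26 passed, 11 higher in PR2 and 15 lower, which is 15.6% against 19.9% (11.0% higher and 8.92% lower). The median log2 fold change was -0.13 in PR2 and -0.05 in PR1, each against parental cells, and -0.02 between PR2 and PR1, against 0.03, 0.05 and 0.00 over all rows. Groups whose 3 libraries did not overlap those of the other group were seen at 58, 47 and 52 of the 167 antisense genes and at 39.9%, 31.6% and 38.7% of all rows. For comparison, 20, 13 and 18 of the 74 tested LINC genes passed in the same 3 comparisons, and 3, 4 and 3 of 19 host genes of small RNAs.

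These counts include 7 antisense genes that reached 1 FPKM in 1 group only: A1BG-AS1, KRTAP5-AS1 and TMEM51-AS1 in PR2, B4GALT1-AS1 and ITGA9-AS1 in PR1, and CLDN10-AS1 and SOX21-AS1 in parental cells. Such a gene entered through the group in which it was high and had to differ, so its values are given with no test and the counts by gene group below leave it out. TRHDE-AS1, CELSR3-AS1, P4HA2-AS1, MAN1B1-AS1 and TOLLIP-AS1 also met the threshold through 1 group, with only 1 library elsewhere at 1 FPKM or more. NR2F2-AS1 met it through PR2, and FEZF1-AS1 and RARA-AS1 through parental cells, with only 2 libraries elsewhere at 1 FPKM or more. The calls of all these genes are given and counted below with that limit. A1BG-AS1, at the gene of a plasma glycoprotein, had 1.12, 1.23 and 1.12 FPKM in PR2, 0.836, 0.349 and 0.532 in PR1 and 0.606, 0.462 and 0.142 in parental cells. Among the 160 genes other than those 7, 28, 17 and 22 passed, which is 17.5%, 10.6% and 13.8%. The shares of all rows tested, here and below, still include rows that reached 1 FPKM in 1 group only. Shares that leave such antisense or sense genes out are therefore not filtered like those of all rows, and a lower share is not read as a result. Also 4 sense genes entered through 1 group only: SOX21 and FEZF1 through parental cells, TRHDE and TP73 through PR2. Leaving out single libraries moved the PR1 count against parental cells to 13 without PR1 A, 11 without PR1 C and 10 without parental B, and the count between PR2 and PR1 to 17 without PR1 B, 16 without PR2 B and 12 without PR2 C. With the letter as a block, 35 genes passed in PR1 against parental cells and 41 between PR2 and PR1. Of the genes named below, KLF3-AS1, HIF1A-AS2, AGAP2-AS1, MAP3K14-AS1, TMPO-AS1, DGUOK-AS1 and FAM83H-AS1 passed in PR1 with the block only (limma adjusted p = 0.0044, 0.017, 0.035, 0.037, 0.037, 0.039 and 0.039). Between PR2 and PR1 this was so for AGAP2-AS1, MAPKAPK5-AS1, NR2F1-AS1, RARA-AS1 and EIF3J-AS1 (0.027, 0.032, 0.032, 0.035 and 0.048). Without the 3 A libraries the counts were 30, 25 and 25. The call held in every fit that left out 1 library for 21 of the 34 genes in PR2 against parental cells, 8 of the 21 in PR1 and 11 of the 26 between PR2 and PR1. Both comparisons with parental cells share the parental libraries, so their values are given side by side and no overlap between them is read.

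**Figure D2:**
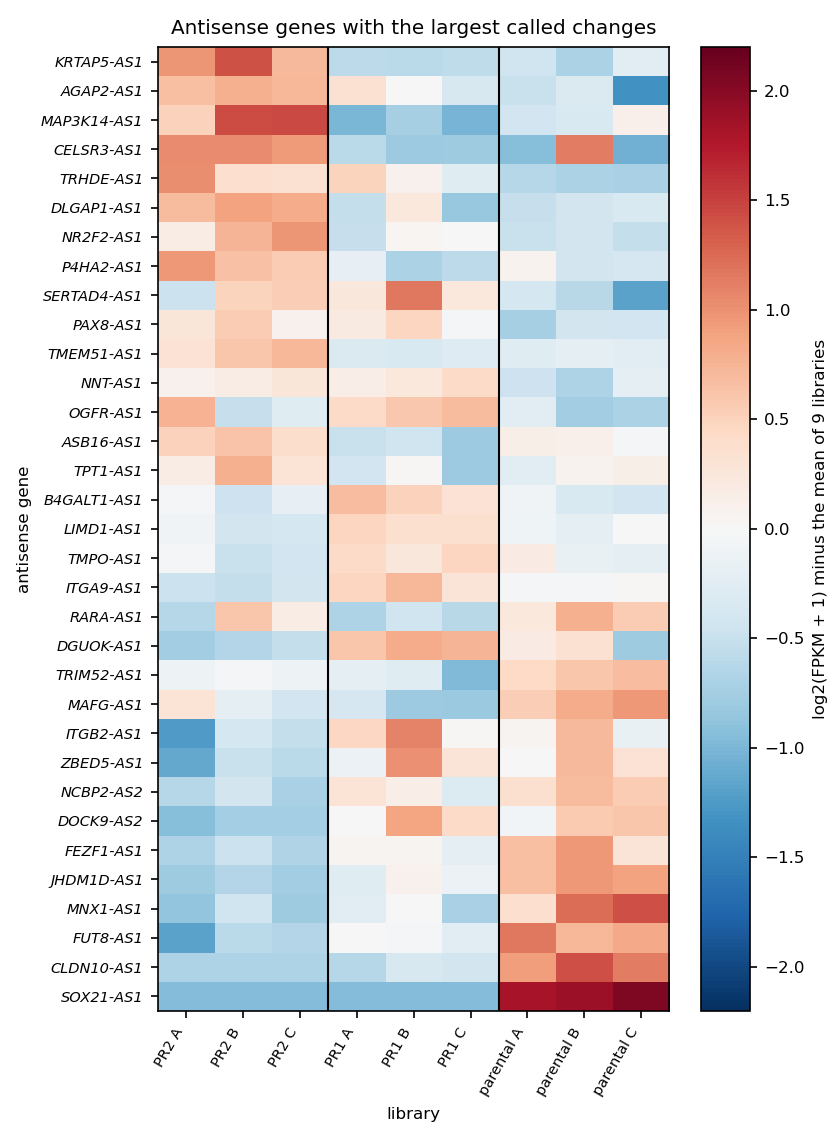
Level of the 33 antisense genes with the largest called changes in the 3 comparisons, genes that reached 1 FPKM in 1 group only included (rows) in each library (columns: PR2, PR1 and parental A to C), as log2(FPKM + 1) minus the gene's mean over the 9 libraries, red above and blue below the mean. SOX21-AS1, CLDN10-AS1, FUT8-AS1 and MNX1-AS1 at the bottom are high in the parental libraries, and KRTAP5-AS1, AGAP2-AS1 and MAP3K14-AS1 at the top are high in PR2.

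Antisense partners of transcription factor genes included SOX21-AS1, which reached 1 FPKM in parental cells only. Of the other 25, 5 passed in PR2 against parental cells (2 higher, 3 lower), 6 in PR1 (1 higher, 5 lower) and 2 between PR2 and PR1 (1 each way). That is 20.0%, 24.0% and 8.0%, against 23.4%, 15.5% and 19.9% of all rows tested. SOX21-AS1, whose start is shown above, had 0.00808, 0 and 0 FPKM in PR2 A, B and C, 0 in each PR1 library and 5.82, 6.16 and 7.12 in parental cells. SOX21, an HMG-box repressor known from neural progenitors, was listed at 0 in all 6 derivative libraries and had 8.03, 11.4 and 7.82 FPKM in parental cells. Both transcripts of the locus were thus read in the parental libraries and practically absent from the table elsewhere. TUBB, BRD2, FLOT1 and other genes that most cells express are listed at 0 throughout, so a listed 0 may stand for an estimate that failed, and no fold is given.

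MNX1-AS1 lies head to head with MNX1, a homeobox factor of motor neurons and pancreas. It had 0.639, 1.19 and 0.725 FPKM in PR2, 1.53, 1.99 and 0.825 in PR1 and 2.87, 6.02 and 6.96 in parental cells. Every derivative library lay below every parental one, parental A being the lowest of its group. The log2 fold change on the log2(FPKM + 1) scale was -1.71 ± 0.28 in PR2 and -1.32 ± 0.28 in PR1 (SE; limma adjusted p = 0.0018 and 0.011), and PR2 and PR1 overlapped. MNX1 fell with it, to 1.37 ± 0.04 FPKM in PR2 and 2.23 ± 0.69 in PR1, against 5.01 ± 0.66 in parental cells (log2 fold changes -1.34 and -0.92, limma adjusted p = 0.00053 and 0.0069).

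FEZF1-AS1 overlaps exons of FEZF1, a zinc finger factor of the developing forebrain. It had 0.389, 0.616 and 0.416 FPKM in PR2, 1.34, 1.32 and 0.930 in PR1 and 2.55, 3.35 and 1.73 in parental cells, so the 3 groups did not overlap and PR2 was the lowest. The fall in PR2 against parental cells was called (log2 fold change -1.24 ± 0.18, limma adjusted p = 0.00091). The smaller fall in PR1 (-0.67) was lost without PR1 A, B or C or parental A or B (limma adjusted p up to 0.12), and the difference of PR2 from PR1 (-0.57) without any 1 of the 6 libraries (up to 0.14). FEZF1-AS1 reached 1 FPKM in 0 PR2, 2 PR1 and 3 parental libraries. It thus met the threshold through parental cells, and its calls carry that limit. FEZF1 had the same order, with 0.0390 ± 0.0406 FPKM in PR2, 0.602 ± 0.182 in PR1 and 1.60 ± 0.30 in parental cells. Parental cells were the only group in which FEZF1 reached 1 FPKM.

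NR2F2-AS1 and its partner moved the other way. NR2F2 encodes the orphan nuclear receptor COUP-TFII, and the antisense gene had 1.92, 3.36 and 4.09 FPKM in PR2, 0.836, 1.70 and 1.60 in PR1 and 0.861, 0.962 and 0.812 in parental cells. All PR2 libraries were above all others, while PR1 overlapped the parental cells. The rise in PR2 was 1.10 ± 0.22 against parental cells (log2 fold change, limma adjusted p = 0.0054), and 0.78 against PR1, a call lost without PR1 A, PR1 C, PR2 B or PR2 C (limma adjusted p up to 0.12). NR2F2-AS1 reached 1 FPKM in 3 PR2, 2 PR1 and 0 parental libraries. It thus met the threshold through PR2, and its calls carry that limit. NR2F2 averaged 46.9 ± 4.8 FPKM in PR2, 30.5 ± 2.1 in PR1 and 16.9 ± 4.0 in parental cells. It rose in both derivatives (log2 fold changes 1.44 and 0.84, limma adjusted p = 0.00037 and 0.011).

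PAX8-AS1 lies at PAX8, a paired-box factor of thyroid and kidney, and had 12.5, 15.3 and 10.9 FPKM in PR2, 11.8, 14.5 and 9.83 in PR1 and 5.72, 7.39 and 7.35 in parental cells. Both derivatives were above the parental cells and overlapped each other. The log2 fold change was 0.82 ± 0.19 in PR2 (limma adjusted p = 0.010, and 0.054 without the A libraries) and 0.73 ± 0.19 in PR1, where the call was lost without PR1 A or B or any parental library (limma adjusted p up to 0.087). PAX8 itself had 4.34, 3.32 and 3.65 FPKM in PR2, 1.97, 1.99 and 1.54 in PR1 and 2.00, 1.72 and 1.56 in parental cells. It rose in PR2 (log2 fold change 0.79 ± 0.18, limma adjusted p = 0.0031), PR1 overlapped the parental cells (limma adjusted p = 0.89), and PR2 exceeded PR1 by 0.75 (limma adjusted p = 0.0054).

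Other antisense genes of this group fell in PR1. MAFG-AS1, partner of a small Maf protein that pairs with NRF2, had 3.81, 2.44 and 1.91 FPKM in PR2, 2.05, 1.24 and 1.23 in PR1 and 4.69, 5.89 and 6.64 in parental cells. Its log2 fold change was -1.43 ± 0.21 in PR1 (limma adjusted p = 0.0019) and -0.88 in PR2, a call lost without PR2 C, parental B or parental C (limma adjusted p up to 0.066). MAFG averaged 17.0 ± 4.7 FPKM in PR2, 8.24 ± 1.44 in PR1 and 14.03 ± 3.14 in parental cells, with PR2 overlapping the parental cells. RARA-AS1, at a retinoic acid receptor gene, was at 0.466 to 0.730 FPKM in PR1, against 1.73 to 3.01 in parental cells. Its fall of 1.09 on the log2 scale was lost without PR1 A, PR1 C, parental B or parental C (limma adjusted p up to 0.096). In PR2 RARA-AS1 had 0.505, 2.57 and 1.63 FPKM, overlapping the parental cells. It reached 1 FPKM in 2 PR2, 0 PR1 and 3 parental libraries. RARA-AS1 thus met the threshold through parental cells, and its call carries that limit. RARA fell in PR1 too, to 16.1 ± 1.4 FPKM against 28.3 ± 4.0 in parental cells (log2 fold change -0.77, limma adjusted p = 0.0075). TP73-AS1, at a p53 family gene, had 2.64 to 3.71 FPKM in PR1, against 4.80 to 5.65 in parental cells. This call was lost without PR1 A, PR1 C or parental B (limma adjusted p up to 0.077). In PR2 TP73-AS1 had 3.94, 3.95 and 4.26 FPKM, also below every parental library, and did not pass against parental cells.

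NKX2-1-AS1 is the antisense gene of NKX2-1, the lineage factor of lung epithelium. It had 9.42, 12.1 and 12.1 FPKM in PR2, 13.8, 21.1 and 17.6 in PR1 and 14.8, 10.4 and 7.75 in parental cells, and passed in no comparison. NKX2-1 averaged 73.7 ± 9.1 FPKM in PR2, 126 ± 33 in PR1 and 66.3 ± 13.2 in parental cells, and its rise in PR1 (log2 fold change 0.90) was lost without PR1 B, parental B or parental C (limma adjusted p up to 0.073). ZEB1-AS1 stood near the threshold, with 0.929 to 1.47 FPKM in PR2, 0.911 to 1.26 in PR1 and 0.804 to 1.18 in parental cells, beside ZEB1, a repressor of epithelial genes, at 0.105 to 0.132, 0.0334 to 0.0882 and 0.0114 to 0.0237 FPKM. HOXB-AS3 passed in no comparison, with means of 7.59, 10.1 and 14.4 FPKM in PR2, PR1 and parental cells. KLF3-AS1 had 0.725, 1.97 and 1.70 FPKM in PR2, 1.05, 2.68 and 1.28 in PR1 and 2.00, 6.30 and 4.83 in parental cells, so each derivative library lay below the parental library of its letter. Its log2 fold changes of -1.07 in PR2 and -0.97 in PR1 missed the threshold (limma adjusted p = 0.050 and 0.091). Under the block both passed (limma adjusted p = 0.0019 and 0.0044).

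Among the 14 antisense genes of signalling genes, 4 passed in PR2 against parental cells (3 higher, 1 lower), 0 in PR1 (limma; 5 had an unadjusted p under 0.05) and 3 between PR2 and PR1. That is 28.6%, 0% and 21.4%, against 23.4%, 15.5% and 19.9% of all rows tested. These shares are those without the block. AGAP2-AS1 and MAP3K14-AS1 of this group passed in PR1 with the letter as a block only. MAP3K14-AS1 lies at the gene of NIK, a kinase of the non-canonical NF-kappa B pathway. It had 4.41, 9.22 and 9.44 FPKM in PR2, 0.898, 1.30 and 0.870 in PR1 and 1.82, 2.02 and 3.08 in parental cells. PR2 was above every other library and PR1 below every other, with log2 fold changes of 1.35 ± 0.26 in PR2 against parental cells and 2.05 ± 0.26 against PR1 (limma adjusted p = 0.0041 and 0.00054). Its partner is only read together with SPATA32, and that combined row averaged 9.87 ± 3.47 FPKM in PR2, 3.49 ± 1.21 in PR1 and 4.32 ± 0.36 in parental cells.

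AGAP2-AS1, at the gene of an Arf GTPase-activating protein, had 13.5, 14.7 and 14.2 FPKM in PR2, 10.6, 8.09 and 6.22 in PR1 and 5.54, 6.38 and 2.66 in parental cells. PR2 lay above all other libraries and PR1 overlapped the parental cells. The log2 fold change in PR2 against parental cells was 1.43 ± 0.26 (limma adjusted p = 0.0034), while AGAP2 lay between 0.0282 and 0.205 FPKM over the 9 libraries. DLGAP1-AS1, at a postsynaptic scaffold gene, had 5.12, 6.03 and 5.68 FPKM in PR2, 1.62, 3.42 and 1.11 in PR1 and 1.65, 1.86 and 2.00 in parental cells, which put PR2 above both (log2 fold changes 1.22 and 1.18, limma adjusted p = 0.0045 and 0.0068). DLGAP1 averaged 1.75 ± 0.12, 0.703 ± 0.086 and 1.03 ± 0.91 FPKM in PR2, PR1 and parental cells and passed in no comparison.

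DOCK9-AS2 fell in PR2, both against parental cells and against PR1. DOCK9 activates the small GTPase CDC42, and its antisense gene had 0.255, 0.417 and 0.421 FPKM in PR2, 1.42, 3.36 and 2.22 in PR1 and 1.30, 2.55 and 2.67 in parental cells. PR2 was below every other library and PR1 overlapped the parental cells. The log2 fold change was -1.19 ± 0.24 against parental cells and -1.25 ± 0.24 against PR1 (limma adjusted p = 0.0054 and 0.0055). DOCK9 followed, with 15.2 ± 1.5 FPKM in PR2, 39.3 ± 9.0 in PR1 and 27.8 ± 0.7 in parental cells (log2 fold changes of PR2 -0.83 against parental cells and -1.29 against PR1, limma adjusted p = 0.0077 and 0.00091).

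Of 11 antisense genes at adhesion, cytoskeleton and matrix genes, CLDN10-AS1, KRTAP5-AS1 and ITGA9-AS1 reached 1 FPKM in 1 group only. Of the other 8, 1 passed in PR2 against parental cells (lower), 1 in PR1 (higher) and 3 between PR2 and PR1 (1 higher, 2 lower). That is 12.5%, 12.5% and 37.5%, against 23.4%, 15.5% and 19.9% of all rows tested. CLDN10-AS1, at a tight junction gene, was listed at 0 in all 3 PR2 libraries and had 0.0389, 0.254 and 0.210 FPKM in PR1 and 2.06, 3.28 and 2.51 in parental cells. CLDN10 followed at lower levels, at 0 in PR2, 0.0596 ± 0.0540 FPKM in PR1 and 0.691 ± 0.080 in parental cells. KRTAP5-AS1, named after keratin-associated proteins, had 3.19, 4.64 and 2.51 FPKM in PR2, 0.434, 0.406 and 0.444 in PR1 and 0.569, 0.318 and 0.813 in parental cells. ITGA9-AS1, at an integrin subunit gene, had 0.225, 0.176 and 0.290 FPKM in PR2, 1.36, 1.81 and 1.07 in PR1 and 0.644, 0.651 and 0.724 in parental cells, with PR1 above and PR2 below the parental cells and no overlap, while ITGA9 averaged 0.0142, 0.0449 and 0.0596 FPKM in PR2, PR1 and parental cells.

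LIMD1-AS1, at a LIM-domain scaffold gene, had 4.21, 3.13 and 3.18 FPKM in PR2, 6.59, 6.02 and 6.02 in PR1 and 4.11, 3.76 and 4.44 in parental cells. PR1 was above every other library, and PR2 was lower than PR1 by 0.69 ± 0.14 on the log2 scale (limma adjusted p = 0.0082); the rise of PR1 against parental cells was lost without any 1 of the 6 libraries (limma adjusted p up to 0.12). ITGB2-AS1, partner of the beta subunit of leukocyte integrins, had 1.56, 3.60 and 3.19 FPKM in PR2, 7.26, 11.9 and 5.11 in PR1 and 5.26, 8.85 and 4.38 in parental cells, and its difference of PR2 from PR1 (-1.24) was lost without PR1 A, PR1 B, PR2 A or PR2 C (adjusted p up to 0.081 in limma). CELSR3-AS1, head to head with a cadherin gene, had 3.70, 3.71 and 3.37 FPKM in PR2 and 0.514, 0.318 and 0.324 in PR1. Its parental libraries disagreed, at 0.194, 3.995 and 0.0906 FPKM in A, B and C. The call between PR2 and PR1 was lost without any 1 of the 6 PR2 and PR1 libraries (limma adjusted p up to 0.076). Those fits kept the parental libraries, so their disagreement is part of the spread used for this call.

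The antisense genes of metabolic, transport and membrane genes numbered 19. Without TMEM51-AS1 and B4GALT1-AS1, which reached 1 FPKM in 1 group only, 3 of 17 passed in PR2 against parental cells (2 higher, 1 lower), 2 in PR1 (1 each way) and 3 between PR2 and PR1 (1 higher, 2 lower). That is 17.6%, 11.8% and 17.6%, against 23.4%, 15.5% and 19.9% of all rows tested. FUT8-AS1 overlaps exons of FUT8, the enzyme of core fucosylation, and had 0.627, 1.42 and 1.34 FPKM in PR2, 2.62, 2.55 and 2.08 in PR1 and 7.22, 5.06 and 5.49 in parental cells. The 3 groups did not overlap. The log2 fold change was -1.71 ± 0.19 in PR2 and -1.01 ± 0.19 in PR1 (limma adjusted p = 0.00018 and 0.0059), and the difference of PR2 from PR1 (-0.70) was lost without PR1 A, PR1 B, PR2 A or PR2 C (adjusted p up to 0.078 in limma). FUT8 fell in PR2, to 26.6 ± 4.1 FPKM against 59.7 ± 13.2 in parental cells (log2 fold change -1.13, limma adjusted p = 0.0019), and stood at 37.7 ± 3.2 in PR1, where the call was lost without any PR1 library, parental A or parental B (limma adjusted p up to 0.12).

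COX10-AS1, head to head with the gene of a heme A synthesis enzyme, varied little within groups. It had 2.46, 2.62 and 2.67 FPKM in PR2, 1.06, 1.25 and 1.24 in PR1 and 1.488, 1.462 and 1.498 in parental cells. PR2 was above every other library (log2 fold changes 0.53 ± 0.12 against parental cells and 0.71 ± 0.12 against PR1, limma adjusted p = 0.0090 and 0.0024), and COX10, at 3.82 ± 0.50 FPKM in PR2, 2.71 ± 0.64 in PR1 and 2.41 ± 0.22 in parental cells, missed the threshold in PR2 against parental cells (limma adjusted p = 0.051). NNT-AS1, at the gene of the mitochondrial NADPH-forming transhydrogenase, had 6.28, 6.57 and 7.12 FPKM in PR2, 6.492, 7.001 and 8.057 in PR1 and 3.98, 3.27 and 4.94 in parental cells. Its rises of 0.61 and 0.70 on the log2 scale were lost without PR2 B, PR2 C or parental B (limma adjusted p up to 0.079) and without PR1 C or parental B (up to 0.059). NNT averaged 24.1 ± 2.6 FPKM in PR2, 36.3 ± 9.3 in PR1 and 18.7 ± 1.6 in parental cells and rose in PR1 (log2 fold change 0.89, limma adjusted p = 0.010).

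TMEM51-AS1 had 1.27, 1.79 and 2.04 FPKM in PR2, 0.458, 0.457 and 0.504 in PR1 and 0.517, 0.569 and 0.560 in parental cells. TMEM51 was high in PR2 as well, at 19.2 ± 1.4 FPKM, against 9.15 ± 2.59 in PR1 and 9.44 ± 0.63 in parental cells (log2 fold changes 0.95 against parental cells and 1.02 against PR1, limma adjusted p = 0.0041 and 0.0037). B4GALT1-AS1, at a galactosyltransferase gene, had 0.821, 0.348 and 0.625 FPKM in PR2, 1.95, 1.62 and 1.31 in PR1 and 0.754, 0.460 and 0.376 in parental cells. B4GALT1 was far higher and its groups overlapped, at 91.6 ± 22.8, 88.3 ± 25.4 and 80.2 ± 17.6 FPKM in PR2, PR1 and parental cells. CBR3-AS1 had 2.55, 2.59 and 3.57 FPKM in PR2, 1.77, 4.12 and 3.27 in PR1 and 2.25, 4.14 and 8.44 in parental cells. Its groups overlapped, the highest value being that of parental C, and it passed in no comparison. CBR3, a carbonyl reductase gene, averaged 4.85, 3.78 and 1.75 FPKM in PR2, PR1 and parental cells and rose in PR2 (log2 fold change 1.07, limma adjusted p = 0.010). Its rise in PR1 (0.80) was lost without any PR1 library, parental B or parental C (limma adjusted p up to 0.15).

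A list of chromatin, RNA and protein turnover partners, drawn up by the start of the symbol, held 28 antisense genes. Of these, 5 passed in PR2 against parental cells (1 higher, 4 lower), 2 in PR1 (both lower) and 2 between PR2 and PR1 (1 each way). That is 17.9%, 7.14% and 7.14%, against 23.4%, 15.5% and 19.9% of all rows tested. TRIM52-AS1, head to head with a RING finger gene, had 6.61, 6.93 and 6.60 FPKM in PR2, 6.08, 5.79 and 3.19 in PR1 and 10.1, 11.5 and 12.1 in parental cells. Both derivatives were below the parental cells, and the log2 fold change was -1.06 ± 0.20 in PR1 (limma adjusted p = 0.0061) and -0.66 in PR2, a call lost without any PR2 library, parental B or parental C (limma adjusted p up to 0.10). TRIM52 averaged 9.47 ± 0.63 FPKM in PR2, 6.09 ± 1.18 in PR1 and 11.2 ± 2.1 in parental cells, and its fall in PR1 (-0.78) was lost without PR1 C or parental B (limma adjusted p up to 0.055). PAXIP1-AS1, beside a DNA damage response gene, fell to 3.29 to 3.58 FPKM in PR2 and 2.65 to 4.26 in PR1, against 5.24 to 5.95 in parental cells; the calls were lost without PR2 C, parental B or parental C (limma adjusted p up to 0.071) and without PR1 A, PR1 C or any parental library (up to 0.13). EIF3J-AS1, beside a translation initiation factor gene, had 6.01 to 6.70 FPKM in PR2, 4.60 to 4.87 in PR1 and 3.63 to 4.95 in parental cells, and its rise in PR2 was lost without PR2 B, PR2 C, parental A or parental B (limma adjusted p up to 0.077). OIP5-AS1, a conserved cytoplasmic RNA also called cyrano, passed in no comparison, with 9.95 ± 3.40 FPKM in PR2, 10.47 ± 3.12 in PR1 and 7.99 ± 2.00 in parental cells.

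The symbols of the other 69 partners matched none of the lists, although some have such roles, such as KDM7A and NCBP2 in chromatin and RNA, DGUOK in mitochondria and the homeobox gene LBX2. Of the 68 other than A1BG-AS1, 10 passed in PR2 against parental cells (2 higher, 8 lower), 6 in PR1 (3 each way) and 9 between PR2 and PR1 (3 higher, 6 lower). That is 14.7%, 8.82% and 13.2%, against 23.4%, 15.5% and 19.9% of all rows tested. JHDM1D-AS1 starts beside KDM7A, a histone demethylase gene, and had 0.471, 0.623 and 0.486 FPKM in PR2, 1.11, 1.72 and 1.33 in PR1 and 3.034, 3.902 and 3.677 in parental cells. The 3 groups did not overlap. The log2 fold change was -1.57 ± 0.14 in PR2 and -0.93 ± 0.14 in PR1 (limma adjusted p = 5.8e-05 and 0.0022), and the difference of PR2 from PR1 (-0.64) was lost without PR1 B or PR2 C (limma adjusted p up to 0.051). KDM7A had 0.897, 1.53 and 1.84 FPKM in PR2, 0.842, 1.67 and 1.49 in PR1 and 2.30, 2.36 and 2.43 in parental cells, and missed the threshold in both derivatives (limma adjusted p = 0.087 and 0.080).

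NCBP2-AS2 is head to head with NCBP2, the small subunit of the nuclear cap-binding complex. GENCODE 29 lists NCBP2-AS2 as protein coding, and likewise the matches of FAM83H-AS1 (IQANK1) and TOPORS-AS1 (SMIM27). The matches of PSMD5-AS1 (CUTALP), TP73-AS1 and EMC3-AS1 are listed there as transcribed pseudogenes. NCBP2-AS2 had 8.01, 9.62 and 7.51 FPKM in PR2, 16.2, 14.6 and 10.4 in PR1 and 16.9, 21.6 and 19.6 in parental cells, so PR2 was the lowest throughout. Its log2 fold change in PR2 was -1.12 ± 0.18 against parental cells (limma adjusted p = 0.0019) and -0.63 against PR1, a call lost without PR1 A, PR1 B or any PR2 library (limma adjusted p up to 0.13). NCBP2 averaged 44.6 ± 2.2 FPKM in PR2, 43.3 ± 3.9 in PR1 and 66.4 ± 9.7 in parental cells, and its called falls of 0.56 and 0.60 were lost without any PR2 library, parental A or parental C (limma adjusted p up to 0.081) and without PR1 A, PR1 B, parental A or parental C (up to 0.082).

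TRHDE-AS1 overlaps TRHDE, the ectoenzyme that degrades thyrotropin-releasing hormone, and both were close to 0 in parental cells. TRHDE-AS1 had 2.32, 1.12 and 1.06 FPKM in PR2, 1.31, 0.762 and 0.363 in PR1 and 0.0649, 0.0111 and 0 in parental cells. All derivative libraries were above all parental ones, with a log2 fold change of 1.25 ± 0.23 in PR2 (limma adjusted p = 0.0031) and 0.79 in PR1, a call lost without PR1 A or B or any parental library (limma adjusted p up to 0.12). TRHDE-AS1 reached 1 FPKM in 3 PR2, 1 PR1 and 0 parental libraries, so it met the threshold through PR2 and its calls carry that limit. TRHDE had 1.30 ± 0.47 FPKM in PR2, 0.687 ± 0.172 in PR1 and 0.0331 ± 0.0026 in parental cells, reaching 1 FPKM in PR2 only.

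P4HA2-AS1 is antisense to P4HA2, a collagen prolyl hydroxylase gene. It had 3.351, 2.501 and 2.283 FPKM in PR2, 0.969, 0.383 and 0.497 in PR1 and 1.37, 0.702 and 0.725 in parental cells, with PR2 above all other libraries (log2 fold changes 0.95 ± 0.19 against parental cells and 1.21 ± 0.19 against PR1, limma adjusted p = 0.0060 and 0.0022). P4HA2-AS1 reached 1 FPKM in 3 PR2, 0 PR1 and 1 parental library. It thus met the threshold through PR2, where it was high, and its calls carry that limit. P4HA2 averaged 33.5 ± 5.9 FPKM in PR2, 9.29 ± 2.48 in PR1 and 20.2 ± 5.8 in parental cells, and exceeded PR1 in PR2 by 1.76 on the log2 scale (limma adjusted p = 0.00079). Its rise in PR2 and fall in PR1 against parental cells were lost without any PR2 library, parental B or parental C (limma adjusted p up to 0.15) and without PR1 B or C (up to 0.061).

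Further genes separated PR2 from PR1. ASB16-AS1, at a SOCS-box gene, had 10.9, 12.1 and 9.94 FPKM in PR2, 4.995, 5.186 and 3.827 in PR1 and 8.16, 8.09 and 7.31 in parental cells, and PR2 exceeded PR1 by 1.08 ± 0.15 (log2 fold change, limma adjusted p = 0.00090). DGUOK-AS1, at a mitochondrial nucleoside kinase gene, had 0.791, 0.946 and 1.11 FPKM in PR2, 3.62, 4.35 and 4.10 in PR1 and 2.44, 2.81 and 0.772 in parental cells, and was lower in PR2 than in PR1 by a log2 fold change of -1.37 ± 0.25 (limma adjusted p = 0.0047). DGUOK passed in no comparison, with 51.0 ± 5.9 FPKM in PR2, 62.2 ± 15.5 in PR1 and 52.9 ± 9.9 in parental cells.

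ZBED5-AS1 had 1.42 to 2.76 FPKM in PR2, 3.79 to 9.54 in PR1 and 4.29 to 7.58 in parental cells; its differences of PR2 were lost without PR2 A, PR2 C, parental B or parental C (limma adjusted p up to 0.10) and without PR1 B, PR1 C, PR2 A or PR2 C (up to 0.076). TPT1-AS1 was higher in PR2 than in PR1 by 0.82, a call lost without PR1 A, PR1 C, PR2 B or PR2 C (limma adjusted p up to 0.12), and TMPO-AS1, at a nuclear lamina gene, was lower by 0.69, a call lost without PR1 C, PR2 B or PR2 C (up to 0.076). SERTAD4-AS1 and OGFR-AS1 were the largest rises in PR1. SERTAD4-AS1 had 5.67, 11.6 and 5.58 FPKM in PR1, against 3.27, 2.66 and 1.47 in parental cells, and OGFR-AS1, at an opioid growth factor receptor gene, had 12.9, 14.7 and 15.9 in PR1, against 7.82, 5.17 and 5.41 in parental cells. The rise of SERTAD4-AS1 by 1.28 was lost without PR1 B, PR1 C, parental B or parental C (limma adjusted p up to 0.11) and that of OGFR-AS1 by 1.14 without any PR1 library, parental B or parental C (up to 0.095). SERTAD4, a SERTA-domain gene, averaged 5.56 ± 1.52 FPKM in PR2, 4.78 ± 1.85 in PR1 and 2.47 ± 0.82 in parental cells. Its rise in PR2 was lost without PR2 B, PR2 C, parental B or parental C (limma adjusted p up to 0.13).

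**Figure D3:**
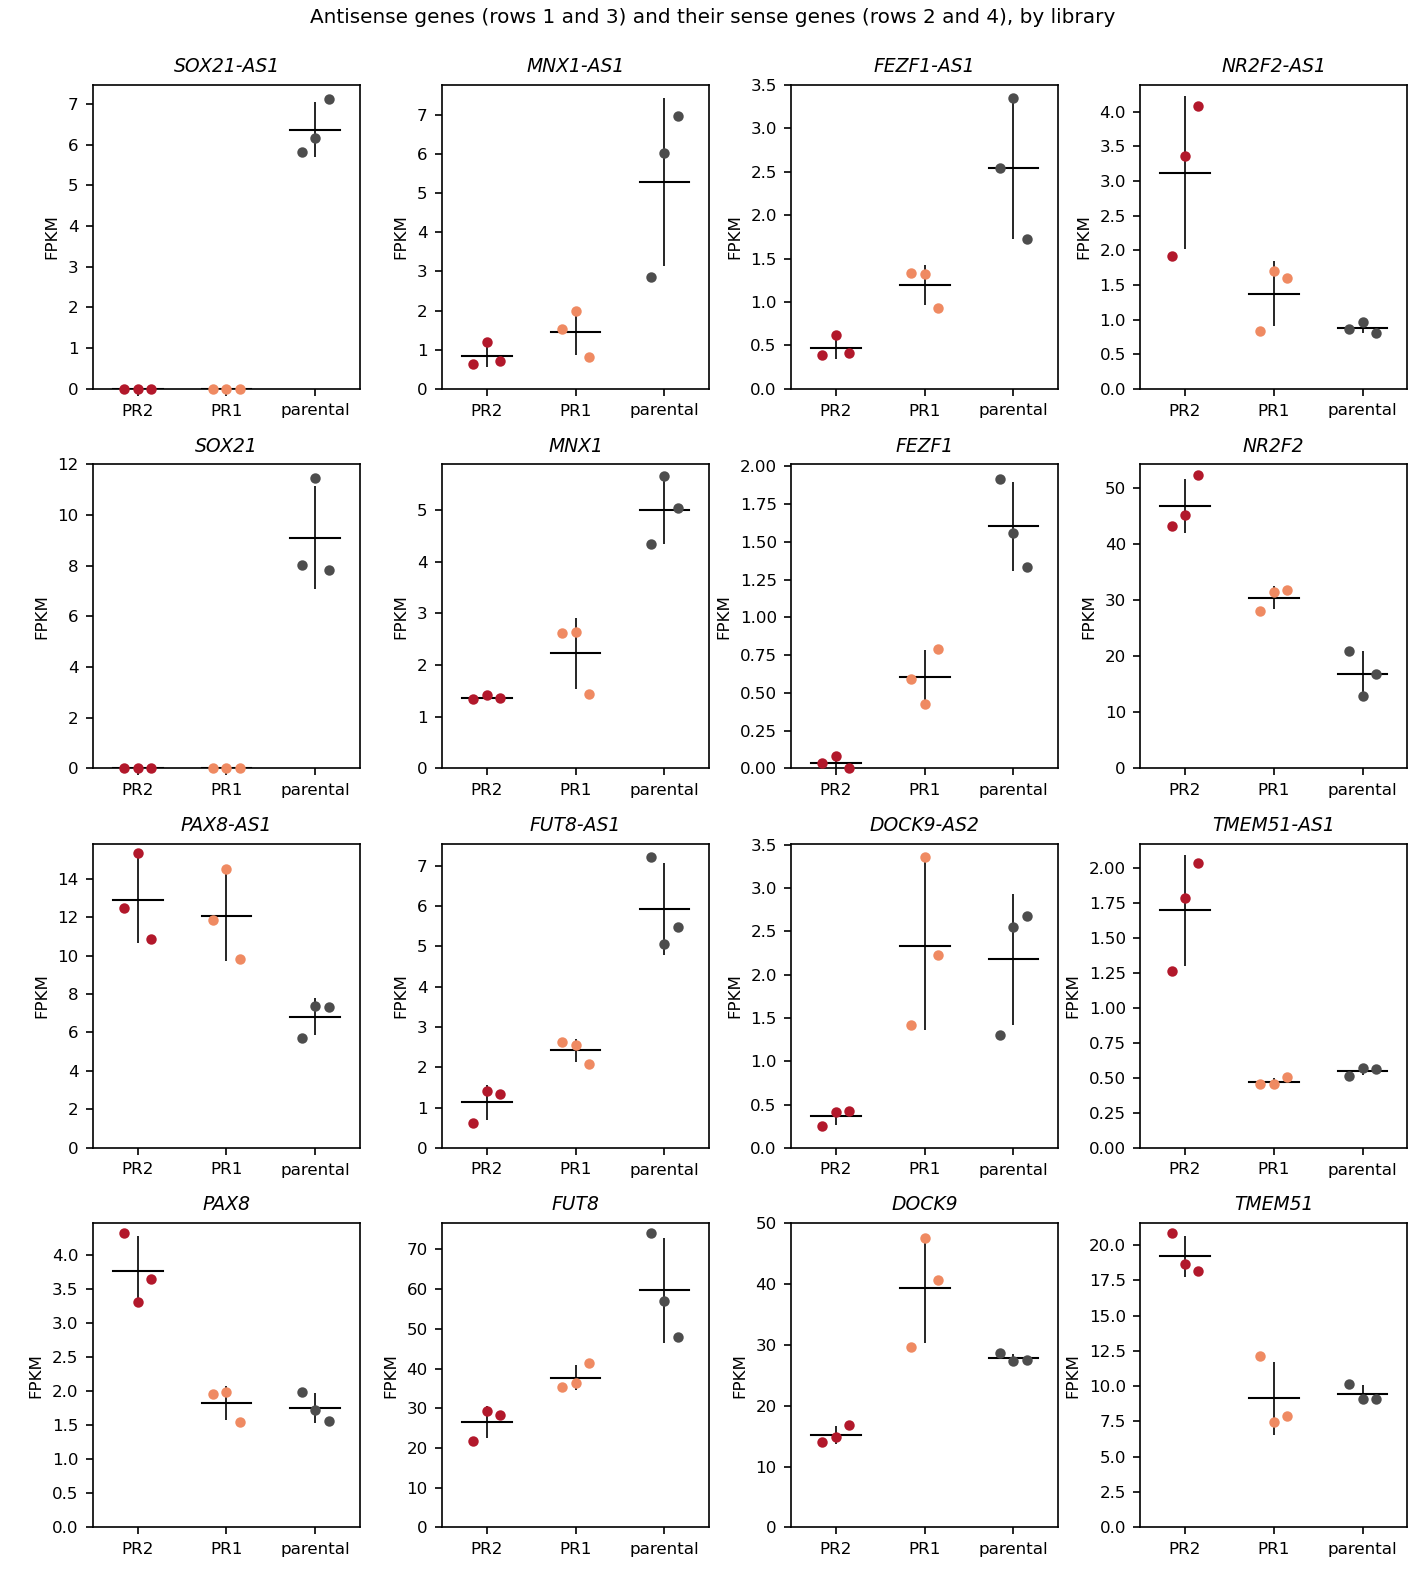
FPKM of 8 antisense genes (rows 1 and 3) and of their sense genes directly below them (rows 2 and 4) in the PR2, PR1 and parental libraries A, B and C from left to right; each point is 1 library, horizontal lines are means and vertical lines are SDs (n = 3). In each pair the antisense gene and its partner have their PR2 points on the same side of the parental points, and the PR1 points lie above the parental points for PAX8-AS1 and overlap them for PAX8.

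The antisense and the sense gene could both be tested in 132 pairs, with 131 sense genes since DLGAP1 has 2 antisense genes. Sense genes passed in 33 cases in PR2 against parental cells, 24 in PR1 and 24 between PR2 and PR1, which is 25.2%, 18.3% and 18.3% of 131, against 23.4%, 15.5% and 19.9% of all rows tested. Without the 4 sense genes that reached 1 FPKM in 1 group only, 30, 21 and 23 of 127 passed (23.6%, 16.5% and 18.1%). The counts were 14 in PR1 without PR1 B, PR1 C or parental B, 20 in PR2 without PR2 C, and 14 and 13 between PR2 and PR1 without PR2 B and without PR2 C. Both genes of a pair passed in 11 pairs in PR2 against parental cells, 9 in PR1 and 5 between PR2 and PR1, in the same direction each time. These include the SOX21, FEZF1, TRHDE and TMEM51 pairs, in which one gene or both entered through 1 group and had to differ. Among the 126 pairs in which both genes reached 1 FPKM in more than 1 group, both passed in 7, 6 and 3. In PR2 against parental cells the 7 were the MNX1, NR2F2, PAX8, FUT8, DOCK9, NCBP2 and P4HA2 pairs. In PR1 the 6 were the MNX1, RARA, FUT8, NNT, TRIM52 and FAM83A pairs. Between PR2 and PR1 the 3 were the DOCK9, NR2F2 and P4HA2 pairs. Among these, NR2F2-AS1 and P4HA2-AS1 met the threshold through PR2, and RARA-AS1 through parental cells. The counts of the 126 pairs are therefore not free of genes chosen through the group in which they were high.

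Of the 126 pairs, the antisense gene alone passed in 14, 7 and 16 in the 3 comparisons, and the partner alone in 22, 15 and 19. In 4 of the 14 pairs of PR2 against parental cells, those of MAFG, EIF3J, PXN and DICER1, the partner had a fitted change of the other sign that did not pass. Pairs in which only the partner passed included PTPRG, a receptor phosphatase gene that rose by 2.13 in PR2 and 2.09 in PR1 on the log2 scale, and TRAM2, which rose by 1.62 and 1.15; PTPRG-AS1 and TRAM2-AS1 did not pass. Changes had the same sign in 91, 93 and 97 of the 132 pairs. Across pairs, which are not independent and some of which share reads, the log2 fold changes of antisense and sense genes had a Pearson r of 0.60 in PR2 against parental cells, 0.65 in PR1 and 0.48 between PR2 and PR1. Without the SOX21 pair these were 0.51, 0.54 and 0.48, and over the 126 pairs 0.45, 0.53 and 0.46. In the 87 pairs with overlapping exons r was 0.48, 0.51 and 0.48, and in the 27 head-to-head pairs other than SOX21, whose exons do not overlap, it was 0.49, 0.52 and 0.24.

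**Figure D4:**
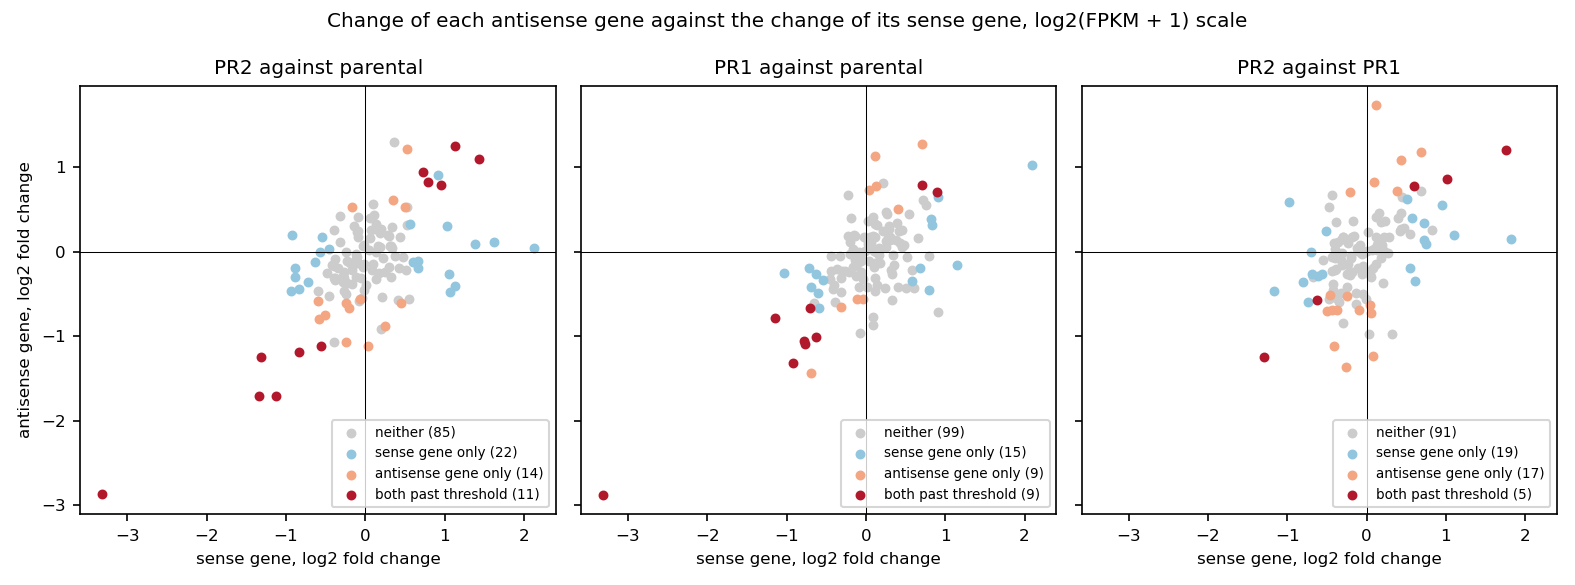
Log2 fold change of each antisense gene (vertical axis) against that of its sense gene (horizontal axis), on the log2(FPKM + 1) scale, for 132 pairs in the 3 comparisons (PR2 and PR1 each against parental cells, and PR2 against PR1), coloured by which gene passed limma's threshold. The pairs in which both passed (11, 9 and 5, pairs that entered through 1 group included) lie at the lower left and the upper right only, and the SOX21 pair is the lowest in the comparisons with parental cells.

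By arrangement, and without the genes that reached 1 FPKM in 1 group only, 9 of 32 head-to-head antisense genes passed in PR2 against parental cells (2 higher, 7 lower), 4 in PR1 (all lower) and 6 between PR2 and PR1 (2 higher, 4 lower). That is 28.1%, 12.5% and 18.8%, against 23.4%, 15.5% and 19.9% of all rows tested. Of 102 with overlapping exons, 14 (6 higher, 8 lower), 10 (5 each way) and 13 (5 higher, 8 lower) passed, which is 13.7%, 9.8% and 12.7%. The head-to-head genes that fell in PR2 included MNX1-AS1, JHDM1D-AS1, NCBP2-AS2, TRIM52-AS1, PAXIP1-AS1 and TOLLIP-AS1, and those that rose were COX10-AS1 and EIF3J-AS1. Of 71 antisense RNAs listed as well studied, 29 were among the 167. Without SOX21-AS1 and ITGA9-AS1, 7 of 27 passed in PR2 against parental cells (3 higher, 4 lower), 5 in PR1 (all lower) and 4 between PR2 and PR1 (2 each way). That is 25.9%, 18.5% and 14.8%, against 23.4%, 15.5% and 19.9% of all rows tested. FAM83H-AS1, GABPB1-AS1, MCM3AP-AS1, ST7-AS1, LOXL1-AS1, PSMD5-AS1, MAPKAPK5-AS1, NR2F1-AS1 and THAP9-AS1 passed in none of the comparisons without the block. GABPB1-AS1 was the steadiest of these, with 1.16 ± 0.24 FPKM in PR2, 1.15 ± 0.16 in PR1 and 1.16 ± 0.11 in parental cells. NR2F1-AS1 averaged 3.73, 5.48 and 5.06 FPKM in PR2, PR1 and parental cells, beside NR2F1, an orphan nuclear receptor gene that was lower in PR2 than in PR1 (4.94 ± 0.96 FPKM in PR2 and 12.5 ± 3.5 in PR1, log2 fold change -1.16, limma adjusted p = 0.0059).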

How the data were processed

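RNA of 9 libraries was isolated with a column kit and sequenced from TruSeq libraries, per the labels' protocols. Tools named in the submitters' processing notes are Cuffdiff 2.2.1, Cufflinks 2.2.1 and TopHat2 2.0.14, with builds GRCh37 and hg19. Annotation, strand setting and read numbers: not given in the sources used here. In all, the authors deposited 1 table of FPKM values, 24069 rows by 9 libraries. The unit is inferred from the use of Cufflinks and from the values, as the column names carry none.

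Values were compared as log2(FPKM + 1) over the rows that reached 1 FPKM in at least 3 libraries, with limma 3.58.1 in R 4.3.3 (1 mean per group over all 9 libraries, intensity trend, two-sided, Benjamini-Hochberg adjustment over 12011 rows, threshold 0.05). The scale understates changes of low genes. The fit was tested on simulated data. FPKM keeps no absolute depth, which limits the precision of low values. Partners are the rows named by the symbol before -AS, and roles were assigned from the start of that symbol. Arrangements come from GENCODE 29, and promoter windows and current symbols from RefSeq (166 of 167 matched).

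Named genes were, per comparison, the 8 largest called rises and falls without overlap of the groups, the 8 highest genes, the listed studied RNAs, and the partners of all these; partners that passed in no comparison are not all described. FAM83A, PTPRG, TRAM2, PXN, DICER1, TOLLIP-AS1 and A1BG-AS1 were named after their values were seen. One gene is not reported here. The genes, lists and tests were chosen with earlier results of these data known.

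Deviations from group means correlated between same-letter libraries of PR1 and the parental cells (0.311 for A, 0.477 for B, 0.163 for C) and of PR2 and PR1 (0.527, 0.544, 0.254), so letters paired those groups. For PR2 and the parental cells the C libraries did not (0.296, 0.417, 0.014). Alternatives were a pseudocount of 0.1, no filter, quantile normalization, the letter as a block, only the 6 libraries compared, and each library or all A libraries left out.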

Additional observations from a re-analysis of the deposited data

Results flagged for a closer look

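For 17 antisense genes PR2 and PR1 lay on opposite sides of the parental mean and differed from each other in limma's fit over all rows (adjusted p under 0.05), which is what picked them out. The values below are log2 differences, PR2 minus PR1, on the log2(FPKM + 1) scale. Lower in PR2 than in PR1 were DGUOK-AS1 (-1.37), DOCK9-AS2 (-1.25), ITGB2-AS1 (-1.24), ZBED5-AS1 (-1.12), ITGA9-AS1 (-0.96), TMPO-AS1 (-0.69), MAN1B1-AS1 (-0.69) and LIMD1-AS1 (-0.69). Higher in PR2 than in PR1 were MAP3K14-AS1 (2.05), CELSR3-AS1 (1.73), KRTAP5-AS1 (1.61), P4HA2-AS1 (1.21), ASB16-AS1 (1.08), TMEM51-AS1 (0.86), TPT1-AS1 (0.82), COX10-AS1 (0.71) and RBM5-AS1 (0.71). For DOCK9-AS2, ZBED5-AS1, LIMD1-AS1, COX10-AS1, TMEM51-AS1 and KRTAP5-AS1, 1 derivative lay close to the parental cells: DOCK9-AS2 differed from parental cells by -1.19 in PR2 and 0.06 in PR1. The others had fitted differences from parental cells of opposite sign, such as MAP3K14-AS1 with 1.35 in PR2 and -0.70 in PR1, and DGUOK-AS1 with -0.55 in PR2 and 0.81 in PR1. Some of these differences were small, such as -0.26 for P4HA2-AS1 in PR1. In others the libraries overlapped the parental ones, such as those of DGUOK-AS1 in PR2 and CELSR3-AS1 in PR1. ITGA9-AS1, KRTAP5-AS1 and TMEM51-AS1 reached 1 FPKM in 1 group only and had to differ, so their calls are not read as tests. P4HA2-AS1, CELSR3-AS1 and MAN1B1-AS1 met the threshold through 1 group, with only 1 library elsewhere at 1 FPKM or more, and their calls carry that limit. The calls of CELSR3-AS1, ITGB2-AS1, ZBED5-AS1, TMPO-AS1, MAN1B1-AS1, TPT1-AS1 and RBM5-AS1 did not hold when single libraries were left out (limma adjusted p up to 0.076, 0.081, 0.076, 0.076, 0.094, 0.12 and 0.11).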

How the results depend on the processing

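No named call changed direction under any alternative. With the letter as a replicate block, 35 antisense genes and 39 sense genes passed in PR1 against parental cells (21 and 24 without it), and 41 and 40 between PR2 and PR1 (26 and 24 without it). In PR2 against parental cells 43 and 45 passed with the block. There the A and B libraries paired by letter and the C libraries did not. No call was lost with the block in any comparison. Without the filter on low values 17 antisense genes passed between PR2 and PR1. Leaving out 1 library at a time gave 24 to 35 antisense and 20 to 32 sense genes in PR2 against parental cells, 10 to 24 and 14 to 25 in PR1 against parental cells, and 12 to 22 and 13 to 27 between PR2 and PR1. The likeness of antisense and sense changes (Pearson r) was 0.711 in PR2 and 0.759 in PR1 against parental cells with a pseudocount of 0.1, 0.563, 0.571 and, between PR2 and PR1, 0.433 without the A libraries, 0.506 and 0.539 without the SOX21 pair, and 0.453 and 0.528 without pairs in which a gene reached 1 FPKM in 1 group only; the last 3 choices were made after seeing the data. Quantile normalization, the fits on 6 libraries and the lower pseudocount kept every count of calls within 1.5 times. Antisense genes of 1 to 3 FPKM rest on few fragments, and absolute depth is unknown.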
